A study of Caenorhabditis elegans with 6 samples.

Results

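The sarcomere genes described here are 37 Caenorhabditis elegans genes, chosen by gene symbol from a list of muscle filament and attachment genes, out of 47656 genes in the deposited gene table. All 37 were found, and all 37 were among the 16506 genes with enough reads to be tested. They fall into 10 thick filament genes, 15 thin filament genes, 6 attachment genes, 5 pharyngeal genes and the calcium release channel gene unc-68. The list was drawn up from what the genes encode, with earlier results of these data known.

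Poly(A) RNA was sequenced from whole wild type worms, in 3 libraries from animals given ilimaquinone (IQ in the protocol, Ilimaquenone in the library titles) and 3 from animals given the vehicle medium. Ilimaquinone is a quinone made by marine sponges. Treatment began at the last larval stage, L4, and lasted 11 days, and the treated animals received ilimaquinone at 100 µM. Both groups were kept in complete S-basal with 200 µM FUDR, which blocks DNA synthesis and so prevents progeny, and 100 µg/mL ampicillin, after growth in M9 at 20 °C. Each library was made from 1 µg of total RNA with a kit that marks strand. Whether replicate libraries were grown apart is not stated, so the p-values reflect the spread among these 6 samples, which may be technical.

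The sarcomere is the repeating unit that makes striated muscle contract. Thick filaments of myosin wound around a paramyosin core pull on thin filaments of actin, and troponin and tropomyosin on the thin filament open the actin sites when calcium is released. In C. elegans the obliquely striated body wall muscle moves the animal and is anchored through dense bodies and M-lines to the basement membrane, while the pharynx, which pumps food, builds its filaments from its own myosin heavy chains and its own troponins. RNA of whole animals mixes these muscles with all other tissues, so fewer muscle cells and less RNA per muscle cell cannot be told apart.

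No sarcomere gene passed the test between ilimaquinone and vehicle, and most lay close to equality. The quasi-likelihood test of edgeR, with p-values adjusted by Benjamini-Hochberg over all 16506 tested genes and called edgeR here, gave 0 of 37 at an adjusted p under 0.05, where 1.47% of all tested genes were called. At an unadjusted p under 0.05 it gave 5 of 37, against 21.9% of all tested genes, 4 of them higher and 1 lower, against 10.1% and 11.8%. DESeq2's Wald test called 2 of 37, against 10.5% of all genes it tested (5.21% higher), and limma-trend on log2(TPM + 1) also called 2, against 2.03% (1.68% higher). In both, the 2 genes were cpn-3, a calponin-like thin filament gene, and myo-2, a pharyngeal myosin heavy chain gene, and both were higher with ilimaquinone.

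The log2 fold changes, ilimaquinone over vehicle, ran from -0.29 for mup-2 to 0.64 for cpn-3, with 23 above 0 and 14 below. Their median was 0.05, against -0.02 over all tested genes. The fold change was smaller than 0.2 on the log2 scale for 27 of the 37 genes, or 73.0%, against 37.6% of all tested genes. For all 37 the 95% interval lay within 1 on the log2 scale, which is a 2-fold difference, as it did for 57.3% of all tested genes. For 24 it lay within 0.5. These shares compare genes of unlike level. Of the 37 genes 34 were more abundant than the median tested gene, and their median standard error was 0.12, against 0.23 for all tested genes. The groups did not overlap for 10 of the 37 genes, 8 with ilimaquinone above and 2 with ilimaquinone below, against 30.8% of all tested genes, 15.8% above and 15% below.

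**Figure D1:**
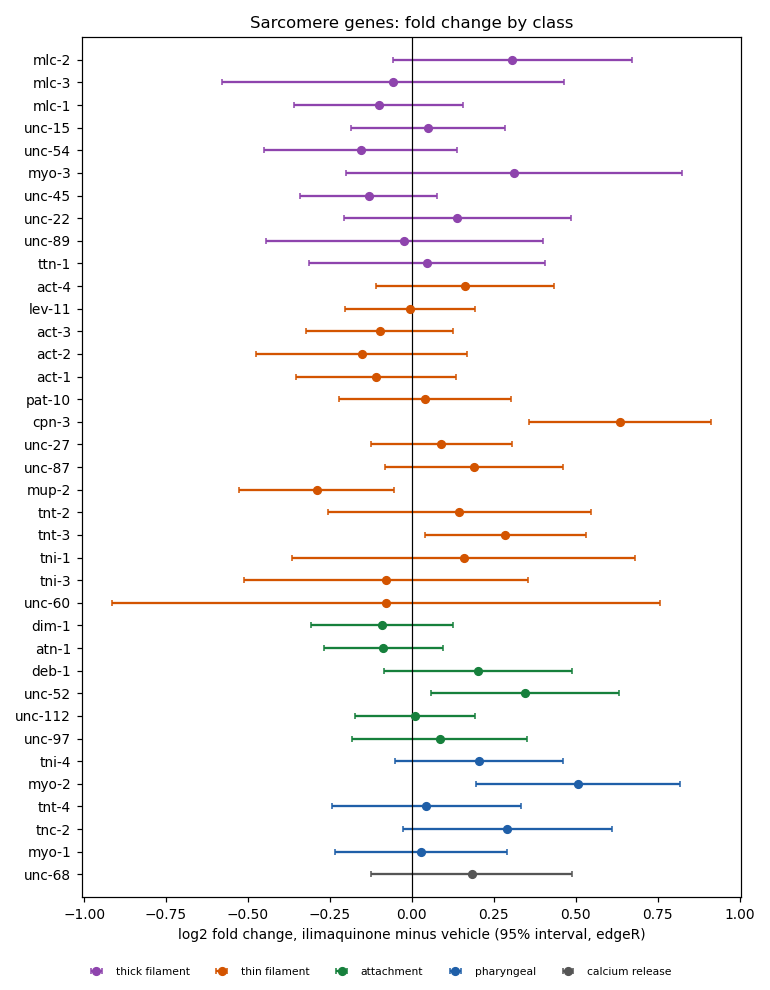
Log2 fold change of each sarcomere gene, ilimaquinone minus vehicle, with its 95% interval from edgeR (horizontal axis), for 37 genes grouped and coloured by class. Most points lie near 0, the intervals of cpn-3 (0.36 to 0.91) and myo-2 (0.20 to 0.82) lie wholly above it, as do those of unc-52 and tnt-3, and that of mup-2 (-0.53 to -0.05) wholly below it.

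One vehicle library, replicate 1, was unlike the rest, and it bears on every value given here. On the main axis of variation in log2 CPM (counts scaled to a fixed library total), a principal component with 57.6% of the variance, it lay at -98.8, against 25.1 to 54.1 for the ilimaquinone libraries and -26.5 to 0.13 for the other vehicle libraries. Library totals were 32155192 to 39244786 estimated counts with ilimaquinone and 32284669 to 34206575 with vehicle. The summed level of 30 germline and oocyte markers was 990 to 1343 CPM in the ilimaquinone libraries, against 5099 CPM in vehicle replicate 1 and 1487 and 1747 CPM in vehicle replicates 2 and 3. That of 40 sperm markers was 41.6 to 105 CPM with ilimaquinone, against 460, 87.7 and 188 CPM in vehicle replicates 1, 2 and 3. Intestine markers, 19 in all, summed to 6697 to 7265 CPM with ilimaquinone and 5967 to 8286 CPM with vehicle. The summed level of 25 neuron markers was 3864 to 4378 CPM with ilimaquinone, against 2461, 4176 and 4135 CPM in vehicle replicates 1, 2 and 3. Every germline, sperm, neuron, intestine, epidermis and pharynx gland marker found in the table had counts, so none was at 0.

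Sarcomere genes were low in vehicle replicate 1 too. It was the lowest of the 6 libraries for 28 of the 37 genes, against 32.4% of all tested genes, and the lowest of the vehicle libraries for 31 of the 37, against 40.9%. Relative to each gene's own mean over the 6 libraries, the median sarcomere gene lay at 0.04 to 0.07 on the log2 scale in the ilimaquinone libraries, against -0.27 in vehicle replicate 1 and 0.04 and 0.03 in vehicle replicates 2 and 3. The departure of vehicle replicate 1 was -0.37 for thick filament genes, -0.27 for pharyngeal genes, -0.17 for thin filament genes and -0.08 for attachment genes. The part of this library, and of the germline and neuron markers that move with it, in the values of the sarcomere genes was not tested. Without it, the median log2 fold change of the 37 genes was -0.02, and edgeR called 1 of them, cpn-3, while calling 4.31% of all genes tested (2.68% higher).

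**Figure D2:**
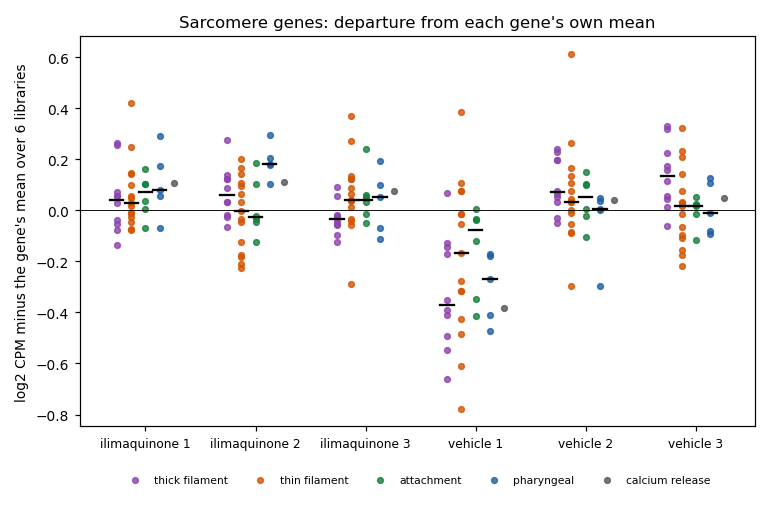
Log2 CPM of each sarcomere gene minus that gene's mean over the 6 libraries (vertical axis) for each library, with points coloured by class and black bars at the class medians. In vehicle replicate 1 the medians of the 4 classes with several genes lie between -0.37 and -0.08 and the single calcium release gene at -0.38, below those of the other 5 libraries, which lie between -0.03 and 0.18.

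The replicates were close for these genes with ilimaquinone and less so with vehicle. The median coefficient of variation of a sarcomere gene over 3 libraries was 4.85% with ilimaquinone and 12.4% with vehicle, where all tested genes had medians of 9.91% and 22.2%. The tested genes as a whole were less abundant and were not matched to the sarcomere genes for level.

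Levels were compared between genes per transcript length, as deposited TPM (transcript abundance scaled to a fixed total). The regulatory myosin light chain gene mlc-2 was the most abundant at a mean of 1262 TPM over the 6 libraries, 123rd among all tested genes, and the giant titin-like kinase gene ttn-1 the least at 7.52 TPM. Of the 37 genes 34 lay above the median of all tested genes, 10.1 TPM, and 12 were among the 500 most abundant. Together they made up 0.807% to 0.831% of all TPM in the ilimaquinone libraries and 0.741% to 0.784% in the vehicle libraries. The 2 ranges of TPM shares do not overlap, and the lowest share was that of vehicle replicate 1. In CPM the groups did overlap. The summed level was 10779 to 11043.5 CPM with ilimaquinone, against 9165, 11005 and 11252 CPM in vehicle replicates 1, 2 and 3.

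**Figure D3:**
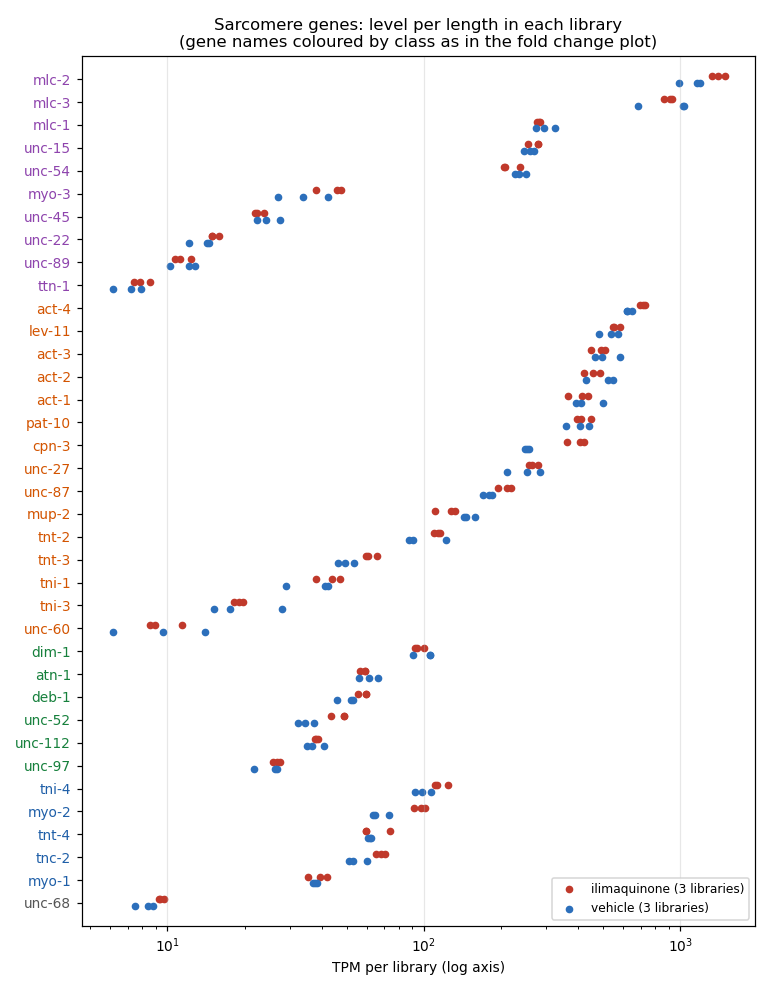
TPM of each sarcomere gene in each library (horizontal log axis), with ilimaquinone libraries in red above vehicle libraries in blue, and genes ordered by class and mean level. Levels run from below 10 TPM for ttn-1 and unc-68 to 1328 to 1488 TPM for mlc-2 with ilimaquinone, and the colours separate clearly for cpn-3 and myo-2.

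Among the thick filament genes, 5 of 10 fold changes were above 0 and 5 below, none at an unadjusted p under 0.05, and the median was 0.01. The heavy chain gene unc-54, which encodes the major myosin of body wall muscle (chromosome I, 14855901 to 14863573), had 1048, 1180 and 1059 CPM in ilimaquinone replicates 1 to 3, against 1043, 1321 and 1299 CPM in vehicle replicates 1 to 3. The groups overlapped, since vehicle replicate 1 lay just below the lowest ilimaquinone library. Its log2 fold change was -0.16 ± 0.12 (SE, edgeR adjusted p = 0.472), and leaving out vehicle replicate 1 gave -0.26. The minor heavy chain gene myo-3, whose myosin lies in the middle of the thick filament and is needed to start it, averaged 215 ± 23.8 CPM with ilimaquinone and 173 ± 49.3 CPM with vehicle (SD, n = 3 each). Its log2 fold change was 0.31 with a 95% interval of -0.20 to 0.82. Leaving out vehicle replicate 1 gave 0.10, and leaving out vehicle replicate 2 gave 0.49.

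Light chains bind the neck of the myosin head. The regulatory light chain gene mlc-2 (chromosome X, 17455781 to 17456586) had 789, 727 and 703 CPM with ilimaquinone, against 469, 638 and 687 CPM with vehicle. All ilimaquinone libraries lay above all vehicle libraries, but the gap was small beside the spread in vehicle, and the log2 fold change of 0.31 ± 0.15 did not pass (SE, edgeR adjusted p = 0.281). It was 0.16 without vehicle replicate 1. Its close copy mlc-1, next to it on the other strand, had 281, 279 and 288 CPM with ilimaquinone, against 267, 342 and 301 CPM with vehicle. The 2 genes encode nearly the same protein, so reads may have been split between them by the counting, and both values are uncertain. With their counts summed, a choice made after seeing the data, the log2 difference was 0.18 (edgeR adjusted p = 0.442). The essential light chain gene mlc-3 had 752, 715 and 699 CPM with ilimaquinone, against 496, 856 and 903 CPM with vehicle, so vehicle replicate 1 lay below and the other vehicle libraries above every ilimaquinone library. Without vehicle replicate 1 the log2 fold change of mlc-1 was -0.19 and that of mlc-3 was -0.29, against -0.10 and -0.06 with all libraries.

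The remaining thick filament genes had log2 fold changes between -0.13 and 0.14. The paramyosin gene unc-15, whose product is the core of the filament, averaged 719 ± 24.7 CPM with ilimaquinone and 695 ± 60.7 CPM with vehicle (SD, n = 3 each). It shares its strand and part of its locus with F07A5.4 and sue-1, so its reads may not all be its own. The gene for the myosin chaperone UNC-45 had 62.9, 65.1 and 62.0 CPM with ilimaquinone, against 69.4, 64.9 and 73.9 CPM with vehicle, overlapping by a small margin, a log2 difference of -0.13 (edgeR adjusted p = 0.396). The genes for the giant proteins twitchin (unc-22), obscurin (unc-89) and the titin-like TTN-1, which carry kinase domains, had log2 fold changes of 0.14, -0.02 and 0.05. All were lowest in vehicle replicate 1, and without it unc-22, unc-89 and ttn-1 lay at -0.01, -0.20 and -0.10.

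Among the thin filament genes, 8 of 15 fold changes were above 0 and 7 below, 3 at an unadjusted p under 0.05, and the median was 0.04. The calponin-like gene cpn-3 (chromosome I, 3987842 to 3988699), a member of the family that binds actin filaments, had 243.8, 203.9 and 235.3 CPM with ilimaquinone, against 130.1, 148.2 and 161.3 CPM with vehicle. The lowest ilimaquinone library lay above the highest vehicle library. The log2 fold change was 0.64 ± 0.12 with a 95% interval of 0.36 to 0.91, and the adjusted p in edgeR was 0.0574. The adjusted p was 7.53e-04 in DESeq2 and 0.0173 in limma-trend. In edgeR cpn-3 also passed with library size alone (1.45% of all genes called) and under stricter filtering of low counts (2.23%). Its edgeR adjusted p was 0.0420 without vehicle replicate 1, and 0.0774 to 0.268 without any of the other 5 libraries in turn. Per length, cpn-3 had 422, 363 and 408 TPM with ilimaquinone, against 252, 248 and 258 TPM with vehicle. The deposited tables list 1 transcript for it and no other tested gene overlaps it.

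The calponin-like gene unc-87, whose product bundles actin in body wall muscle, averaged 259 ± 13.3 CPM with ilimaquinone and 227 ± 28.3 CPM with vehicle (SD, n = 3 each), with overlapping groups. Its log2 fold change was 0.19, with a 95% interval of -0.08 to 0.46, and 0.09 without vehicle replicate 1.

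The actin genes were among the most abundant. The gene act-4 had 940, 895 and 954 CPM with ilimaquinone, against 723, 845 and 924 CPM with vehicle, a log2 difference of 0.16 (edgeR adjusted p = 0.420). The gene act-3 had 645, 572 and 666 CPM with ilimaquinone, against 684, 670 and 662 CPM with vehicle, a log2 difference of -0.10 (edgeR adjusted p = 0.547). Both pairs of groups overlapped. Without vehicle replicate 1 the value of act-4 was 0.07, and without ilimaquinone replicate 2 that of act-3 was -0.03. The actin genes are nearly identical in coding sequence, so how reads divide among them is uncertain. The clustered genes act-1, act-2 and act-3 on chromosome V, with their counts summed after seeing the data, averaged 1659 ± 145 CPM with ilimaquinone and 1803 ± 84.1 CPM with vehicle (SD, n = 3 each), a log2 difference of -0.12 (edgeR adjusted p = 0.517).

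Tropomyosin, which lies along the actin filament, is encoded by lev-11. It had 512, 501 and 490 CPM with ilimaquinone, against 483, 529 and 496 CPM with vehicle, and its log2 fold change of -0.01 was among the smallest. It was above 0 with no filter on low counts (0.01), in DESeq2 and in limma-trend.

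Troponin is the calcium switch of the thin filament, made of subunits I, T and C. The troponin T gene mup-2, needed in body wall muscle, had 160, 150 and 133 CPM with ilimaquinone, against 172, 179 and 192 CPM with vehicle. All ilimaquinone libraries lay below all vehicle libraries, and the log2 fold change was -0.29 ± 0.10 (SE, edgeR adjusted p = 0.178). Another troponin T gene, tnt-3, averaged 189 ± 7.56 CPM with ilimaquinone and 155 ± 16.5 CPM with vehicle (SD, n = 3 each), with ilimaquinone above vehicle in all libraries and an edgeR adjusted p of 0.188.

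Of the other body wall troponins, the main troponin I gene unc-27 and the troponin C gene pat-10 had log2 fold changes of 0.09 and 0.04, and tni-1, tni-3 and tnt-2 had 0.16, -0.08 and 0.14. Vehicle replicate 1 was the lowest library for pat-10, tni-1 and tnt-2, and without it their log2 fold changes were -0.03, -0.06 and -0.01. For tni-3 it was the highest library, and without it the value was 0.12.

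The gene unc-60 encodes actin depolymerizing factor, which takes apart actin filaments and is made as a muscle and a non-muscle form. In the deposited tables its locus on chromosome V (1475086 to 1479587) is shared by 2 entries on the same strand, unc-60 with a transcript of 728 bases and F53E2.2 with one of 2022 bases. The unc-60 entry had 8.96, 8.55 and 11.4 TPM with ilimaquinone, against 6.15, 13.97 and 9.58 TPM with vehicle. The F53E2.2 entry had 341, 344 and 312 TPM with ilimaquinone, against 335, 310 and 321 TPM with vehicle. Which reads belong to which entry is uncertain, and their summed counts gave 0.03 on the log2 scale (edgeR adjusted p = 0.876).

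Attachment genes hold the filaments to the cell edge and the matrix. Of the 6, 4 fold changes were above 0 and 2 below, 1 at an unadjusted p under 0.05, and the median was 0.05. The gene unc-52 encodes perlecan, a basement membrane proteoglycan under body wall muscle (chromosome II, 14647325 to 14684456). It had 277, 293 and 304 CPM with ilimaquinone, against 193, 239 and 255 CPM with vehicle, with no overlap. Its log2 fold change was 0.35 ± 0.12 (SE, edgeR adjusted p = 0.181). Leaving out vehicle replicate 1 gave 0.23.

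The inner side of the attachment sites was close to level. The gene dim-1, for an immunoglobulin-domain protein near dense bodies, had 127.1, 113.6 and 119.7 CPM with ilimaquinone, against 120.8, 137.6 and 125.5 CPM with vehicle. The alpha-actinin gene atn-1 had 143, 146 and 149 CPM with ilimaquinone, against 151, 161 and 153 CPM with vehicle. The vinculin gene deb-1 had 153.7, 147.9 and 142.4 CPM with ilimaquinone, against 107.9, 135.5 and 142.7 CPM with vehicle. The groups did not overlap for atn-1, where ilimaquinone was below by a small margin, and overlapped for the other two. Their log2 fold changes were -0.09, -0.09 and 0.20, with edgeR adjusted p-values of 0.570, 0.516 and 0.354. Without vehicle replicate 1 that of deb-1 was 0.09. The integrin adaptor genes unc-97 (PINCH) and unc-112 (kindlin) had log2 fold changes of 0.08 and 0.01. That of unc-112 was -0.01 with library size alone or upper-quartile factors.

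The pharyngeal genes had the highest class median, 0.20, and 5 of 5 fold changes were above 0, with 1 at an unadjusted p under 0.05. The heavy chain gene myo-2 (chromosome X, 12468061 to 12475348), expressed in pharyngeal muscle, had 505, 506 and 471 CPM with ilimaquinone, against 297, 336 and 409 CPM with vehicle. Every ilimaquinone library lay above every vehicle library, with vehicle replicate 3 the nearest. Its log2 fold change was 0.51 ± 0.13, with a 95% interval of 0.20 to 0.82 and an edgeR adjusted p of 0.123. The adjusted p was 0.0171 in DESeq2 and 0.0494 in limma-trend, and in edgeR it was 0.0615 to 0.398 when a library was left out in turn.

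The other pharyngeal heavy chain gene, myo-1, had 211, 218 and 188 CPM with ilimaquinone, against 179, 204 and 221 CPM with vehicle, so the groups overlapped widely. Its log2 fold change was 0.03 and became -0.05 without vehicle replicate 1. The troponin I gene tni-4 had 75.1, 80.5 and 73.5 CPM with ilimaquinone, against 58.8, 73.4 and 66.6 CPM with vehicle, and the groups met at their edges without overlapping.

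The troponin T gene tnt-4 had 63.2, 76.5 and 63.2 CPM with ilimaquinone, against 58.9, 66.5 and 71.4 CPM with vehicle, with overlap. The troponin C gene tnc-2 had 45.6, 45.7 and 43.3 CPM with ilimaquinone, against 30.4, 41.4 and 38.1 CPM with vehicle, without overlap. The log2 fold changes of tni-4, tnt-4 and tnc-2 were 0.20, 0.04 and 0.29, with edgeR adjusted p-values of 0.303, 0.845 and 0.255. Without vehicle replicate 1 they were 0.12, -0.03 and 0.17. Without vehicle replicate 1 the median of the pharyngeal class was 0.12, those of the thick filament, thin filament and attachment classes were -0.12, -0.03 and 0.02, and that of all tested genes was -0.01. The 14 pharynx gland and lining markers found in the table, from non-muscle cells of the pharynx, summed to 77.7 to 120 CPM with ilimaquinone and 79.4 to 113.3 CPM with vehicle.

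The gene unc-68 encodes the ryanodine receptor, the channel that releases calcium from the sarcoplasmic reticulum. It had 121.2, 121.4 and 118.6 CPM with ilimaquinone, against 86.4, 115.6 and 116.3 CPM with vehicle. Vehicle replicate 1 was far below the rest, and the log2 fold change was 0.18, or 0.05 without that library.

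Ratios between genes of 1 library do not depend on how libraries are scaled to each other. In all, 9 ratios of TPM were tested by an exact two-sided permutation test of the log2 ratio, in which 3 against 3 libraries cannot give a p below 0.1, so no ratio could pass at 0.05. The summed TPM of the pharyngeal heavy chains myo-1 and myo-2 over that of the body wall heavy chains unc-54 and myo-3 was 0.549, 0.503 and 0.518 with ilimaquinone, against 0.400, 0.343 and 0.417 with vehicle. The groups did not overlap, and the log2 difference was 0.44 (exact permutation p = 0.1, 0.129 after Benjamini-Hochberg adjustment over 9 ratios). Leaving out vehicle replicate 1 gave 0.47.

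Within the body wall, myo-3 over unc-54 was 0.2246, 0.2005 and 0.1827 with ilimaquinone, against 0.119, 0.170 and 0.145 with vehicle, again without overlap, and the log2 difference was 0.50. The pharyngeal over the body wall troponin C, tnc-2 over pat-10, was 0.166, 0.157 and 0.164 with ilimaquinone, against 0.126, 0.136 and 0.147 with vehicle, without overlap. Both had the same exact permutation p of 0.1, the smallest possible. In both, vehicle replicate 1 had the lowest ratio of the 6 libraries, so part of each difference rests on that library. Paramyosin over the summed heavy chains was 0.686 ± 0.0356 with ilimaquinone and 0.686 ± 0.0387 with vehicle (SD, n = 3 each), and the unc-60 entry over F53E2.2 was 0.0292 ± 0.00639 with ilimaquinone and 0.0311 ± 0.0133 with vehicle, both with overlapping groups.

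A further 4 ratios were chosen after their genes' values were seen, so they describe the data and support nothing. The ratio of myo-2 to myo-1 averaged 2.49 ± 0.0962 with ilimaquinone and 1.78 ± 0.118 with vehicle (SD, n = 3 each). The ratio of mlc-2 to mlc-1 averaged 5.02 with ilimaquinone and 3.77 with vehicle, that of act-4 to the sum of act-1, act-2 and act-3 averaged 0.533 with ilimaquinone and 0.437 with vehicle, and that of tnt-3 to mup-2 averaged 0.504 with ilimaquinone and 0.333 with vehicle. None of the 4 overlapped between groups.

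The same values can be given as shares of a family's TPM. In the heavy chain family unc-54 made up 54.6% ± 1.65 with ilimaquinone and 63.1% ± 1.20 with vehicle (SD, n = 3 each), while myo-2 made up 24.5% ± 0.809 with ilimaquinone and 17.8% ± 1.62 with vehicle. The share of myo-1 was 9.84% with ilimaquinone and 10.03% with vehicle, and the summed level of the 4 heavy chains was 396 ± 28.7 TPM with ilimaquinone and 376 ± 18.1 TPM with vehicle, with overlap. In the troponin T family mup-2 made up 34.0% with ilimaquinone and 41.5% with vehicle, and tnt-3 17.1% with ilimaquinone and 13.8% with vehicle, around an equal family sum of 363 ± 17.5 TPM with ilimaquinone and 361 ± 17.1 TPM with vehicle. Among the calponin-like pair cpn-3 made up 65.6% with ilimaquinone and 58.7% with vehicle. The sum of this pair was 606 ± 25.3 TPM with ilimaquinone and 431 ± 7.91 TPM with vehicle, without overlap. Shares within a family sum to 100%, so a larger share of one member lowers the others by construction.

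**Figure D4:**
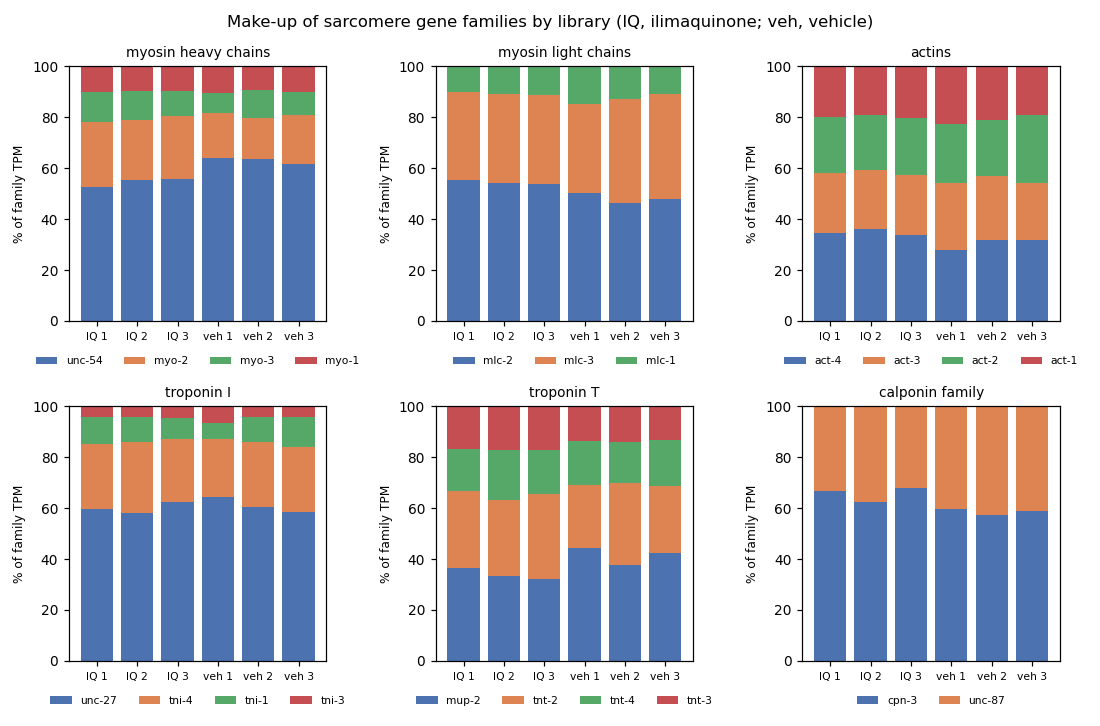
Share of each family's summed TPM (vertical axis, percent) held by each member in each library, for myosin heavy chains, myosin light chains, actins, troponin I, troponin T and the calponin family. The share of unc-54 lies between 52.7% and 55.7% in the ilimaquinone libraries and between 61.7% and 63.8% in the vehicle libraries.

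At the level of transcripts the deposited table lists 143 for these genes, of which 120 could be tested, and 22 genes have 1 transcript each. In edgeR 0 of 120 were called, against 0.292% of all 22238 tested transcripts, and 8 had an unadjusted p under 0.05, 4 higher and 4 lower, against 15.6% of all, 7.51% higher and 8.14% lower. DESeq2 called 7, from cpn-3, myo-2, unc-68 and unc-89, against 6.1% of all transcripts it tested, and limma-trend called that of cpn-3 alone, against 1.13%.

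The estimated make-up of lev-11, with 19 transcripts from which tissue-specific tropomyosins are made, set the 2 replicate 1 libraries apart from the other 4. Those 2 libraries come from different treatment groups. The transcript NM_001313528 held 27.8% of lev-11 TPM in ilimaquinone replicate 1 and 28.4% in vehicle replicate 1, and at most 1.17% in any of the other 4 libraries. The transcript NM_001313531 held 0.0428% and 0.140% in those 2 libraries, and 13.6% to 17.4% in the others. In all, 4 of the 19 transcripts were above and 8 below the other 4 libraries in both replicate 1 libraries, while the gene's summed CPM did not set these libraries apart.

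The make-up of unc-68 also varied between libraries. Its main transcript NM_001356679 held 70.62%, 55.49% and 50.97% of the gene's TPM with ilimaquinone, against 52.96%, 48.72% and 34.00% with vehicle, with overlap. A set of 7 other transcripts had counts, 46 to 155 each, in ilimaquinone replicates 1 and 2 and none in the other 4 libraries, and held 13.2% and 21.3% of the gene's TPM there. Estimated shares of transcripts that overlap along most of their length depend on how shared reads are divided, a step the labels and headers do not describe.

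**Figure D5:**
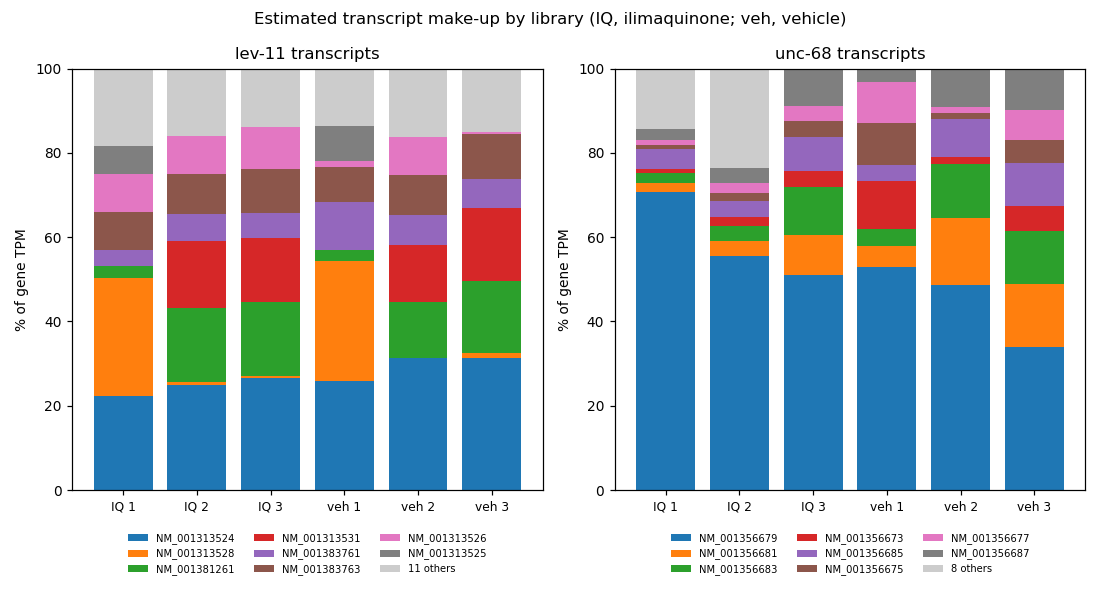
Share of each gene's TPM (vertical axis, percent) assigned to each transcript in each library, for lev-11 and unc-68, with the 8 transcripts of largest share coloured and the rest in grey. For lev-11 the orange transcript, NM_001313528, holds over 27% in both replicate 1 libraries and under 2% in the other 4.

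Other muscle genes were read from the same edgeR fit as lists, and no gene of them was called there. The alternatives called a few, all higher. DESeq2 called 1 of 10 other thin filament genes and 1 of 18 calcium handling and excitation genes, against 10.5% of all genes it tested. Of those 18 limma-trend called 1, and 1 of 9 epidermal attachment genes, against 2.03%. Without vehicle replicate 1, edgeR called 1 of the 10 and 1 of the 18, against 4.31%. Of 10 other thin filament genes 5 were above 0 and 5 below, and the formin genes cyk-1 and fhod-1, whose products lengthen actin filaments, had the smallest p. The gene cyk-1 averaged 96.7 ± 5.77 CPM with ilimaquinone and 63.1 ± 13.4 CPM with vehicle (SD, n = 3 each, edgeR adjusted p = 0.120), and fhod-1 averaged 66.3 ± 2.07 CPM with ilimaquinone and 55.5 ± 1.46 CPM with vehicle (SD, n = 3 each, edgeR adjusted p = 0.164). Of 9 other M-line and thick filament genes 6 were above 0, with a median log2 fold change of 0.01. Those with the smallest p, unc-96 and unc-98, had -0.27 and -0.61 (edgeR adjusted p = 0.263 and 0.265). The gene unc-98 was low, at 1.48 to 1.84 CPM with ilimaquinone and 1.80 to 3.10 CPM with vehicle, with overlap.

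Of 20 other attachment genes 8 were above 0 and 12 below, with a median of -0.09, or -0.02 without vehicle replicate 1. The laminin gene lam-2 and the LIM-domain gene alp-1 had the smallest p, at -0.37 and -0.28. By contrast 8 of 9 epidermal attachment genes, which carry muscle force through the epidermis to the cuticle, were above 0, with a median of 0.34. The 1 gene below 0 lay at -0.68, further from 0 than the highest, at 0.54. The 2 with the smallest p were pat-12 at 0.43 and the intermediate filament gene mua-6 at 0.48 (edgeR adjusted p = 0.162 and 0.180). Their summed level was 2251 to 2451 CPM with ilimaquinone, against 1431, 1741 and 2198 CPM in vehicle replicates 1 to 3, and without vehicle replicate 1 the median was 0.19. The summed level of 20 epidermis markers was 789 to 1165 CPM with ilimaquinone and 402 to 817 CPM with vehicle, and the part of the epidermis in these values was not tested.

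Of 18 genes of muscle calcium handling and excitation 14 were above 0, with a median of 0.08. Without vehicle replicate 1 the median was -0.0018. The gene mca-1, for a calcium pump of the plasma membrane, averaged 505 ± 24.1 CPM with ilimaquinone and 342 ± 40.9 CPM with vehicle (SD, n = 3 each, edgeR adjusted p = 0.0725). The inositol trisphosphate receptor gene itr-1, a calcium release channel outside the sarcomere list, averaged 158 ± 10.2 CPM with ilimaquinone and 126 ± 8.30 CPM with vehicle (SD, n = 3 each, edgeR adjusted p = 0.142).

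Of 12 dystrophin complex genes 9 were above 0, with a median of 0.09. The genes sgcb-1 and stn-1 had the smallest p, at -0.56 and 0.20 (edgeR adjusted p = 0.273 and 0.337). The level of sgcb-1 was low, 2.41 to 4.21 CPM with ilimaquinone and 4.11 to 5.91 CPM with vehicle, with overlap. Of 15 neurotransmitter receptor genes of muscle 6 were above 0, with a median of -0.03, and acr-16 and lev-9 had the smallest p at 0.38 and -0.34. Of 12 muscle transcription factor genes 8 were above 0, with a median of 0.22. The pharynx selector gene pha-4 averaged 75.3 ± 4.92 CPM with ilimaquinone and 62.4 ± 3.92 CPM with vehicle (SD, n = 3 each, edgeR adjusted p = 0.182). The gene hnd-1 had very few reads, and averaged 0.182 CPM with ilimaquinone and 0.660 CPM with vehicle (edgeR adjusted p = 0.174). Its vehicle replicates 1 to 3 had 1.17, 0.33 and 0.48 CPM, so its vehicle mean rests largely on replicate 1. Of 27 non-muscle actin and myosin genes 15 were above 0, with a median of 0.09, and the spectrin gene sma-1 and the profilin gene pfn-1 had the smallest p at 0.39 and -0.31. Without vehicle replicate 1 the medians were -0.02 for dystrophin complex genes and -0.11 for neurotransmitter receptor genes. They were 0.13 for transcription factor genes and 0.03 for non-muscle actin and myosin genes.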

How the data were processed

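Per the file headers, the tables that the authors deposited, 1 of genes and 1 of transcripts, hold columns of counts, FPKM and TPM for each library. The submitters' processing notes name bcl2fastq 2.20.0, HISAT2 2.1.0 and SAMtools 1.9, with genome build WBcel235. The counting program, strand setting and annotation release were not given in the sources used here. Whatever the program, the deposited counts are whole numbers, and since it is not settled whether they are tallies or rounded coverage, they are called estimated counts. The tests had been planned for plain counts and were kept, with no further rounding. The deposited FPKM values were not used. The deposited TPM values served for levels between genes, for ratios and shares, and for 1 alternative test.

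The gene and transcript tests used edgeR 4.0.16 in R 4.3.3, with filterByExpr by group, TMM scaling and the functions glmQLFit and glmQLFTest without covariates, over 16506 genes and 22238 transcripts, at a Benjamini-Hochberg adjusted p under 0.05. The scripts were tested on simulated data. CPM uses TMM-scaled library sizes, the SE is the fold change over the square root of F, and group values are mean ± SD over 3 libraries. The biological coefficient of variation was 28.4%. Alternatives were DESeq2 1.42.0 (Wald test), other size factors, library size alone, no filter on low counts, a stricter one (1 CPM or more in 3 libraries and 50 or more counts summed), a block for the replicate number, limma-trend (limma 3.58.1) on log2(TPM + 1), and each library left out in turn. Summed copies and 4 of the 9 ratios were added after seeing the data.

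The members and lists were chosen with earlier results of these data known. Per-library values are given for the 3 most abundant members of each class, all pharyngeal members, and the 3 members with the smallest p in each direction; of each other list, the 2 genes with the smallest p. Other members are given with values of any kind because every member is accounted for. Positions come from the deposited transcript table, first to last base. Of the members 13 overlap another tested gene; unc-15, act-1 and unc-60 do so on the same strand, and the others on the opposite strand.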

Additional observations from a re-analysis of the deposited data

How the results depend on the processing

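The median log2 fold change of the sarcomere genes stayed between 0.02 and 0.08 under every alternative that kept all libraries, and between -0.02 and 0.11 when each library was left out. The count of sarcomere genes called was 1 with library size alone or a stricter filter (cpn-3), 2 with DESeq2 or limma-trend (cpn-3 and myo-2), and 0 to 1 when a library was left out. Of their transcripts DESeq2 called 7 and limma-trend 1. Over all genes 242 were called, against 69 with no filter, 22 with the replicate block, 1787 with DESeq2, and 11 to 725 when a library was left out. Over all transcripts 65 were called, against 31 with no filter, 0 with the replicate block, 1400 with DESeq2, 251 with limma-trend, and 2 to 45 when a library was left out.

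Same-numbered libraries correlated at -0.16, 0.29 and -0.16 in their deviations from the group means. Between libraries of unlike number the correlations ran from -0.32 to 0.37. With 3 libraries per group, these values cannot settle whether the numbers pair the samples. The transcript make-up of lev-11, which is 1 gene, set both replicate 1 libraries apart, and no count over other genes is given for this pattern. With the replicate block no sarcomere gene was called, and the adjusted p of cpn-3 in edgeR was 0.152.

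Of 524 member fold changes under alternatives 35 changed sign, all of genes whose log2 fold change in edgeR was within 0.2 of 0, and 22 members never did. With all libraries, unc-112 was at -0.012 with library size alone, -0.011 with upper-quartile factors and -0.014 with a stricter filter. The gene lev-11 was at 0.0076 with no filter, 0.0031 with DESeq2 and 0.084 with limma-trend. With the replicate block unc-89 was at 0.0062 and unc-60 at 0.012. With limma-trend unc-60 was at 0.020 and mlc-3 at 0.0045. The summed counts of mlc-1 and mlc-2 gave 0.18, and those of unc-60 and F53E2.2 gave 0.028. Most of each sum came from mlc-2 (740 CPM with ilimaquinone, against 283 for mlc-1) or F53E2.2 (541, against 5.67 for unc-60). These sums are therefore not separate estimates for mlc-1 or unc-60. With a library left out, the ranges were -0.033 to 0.12 (pat-10), -0.052 to 0.091 (myo-1), -0.022 to 0.084 (unc-15), -0.013 to 0.23 (unc-22), -0.046 to 0.10 (tnt-4), -0.013 to 0.031 (unc-112), -0.21 to 0.12 (tni-3), -0.011 to 0.32 (tnt-2), -0.059 to 0.30 (tni-1), -0.10 to 0.17 (ttn-1), -0.037 to 0.014 (lev-11), -0.29 to 0.088 (mlc-3), -0.38 to 0.25 (unc-60) and -0.20 to 0.15 (unc-89). The log2 difference ranged from -0.038 to 0.043 for paramyosin over heavy chains and from -0.35 to 0.30 for unc-60 over F53E2.2; the cause was not tested. The median over all tested genes was -0.04 to -0.02 under the scalings tried.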
